A study of Homo sapiens with 20 samples.

Results

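The 42 genes described here encode the lysosome and the pump that acidifies it. They were matched by symbol to a list of such genes, which was drawn up with earlier results of these data known, and all 42 were found among the 28051 named genes of the RNAseq data. The list holds 9 cathepsins, 2 other proteases (TPP1 and LGMN), 7 membrane proteins, 5 glycosidases, 4 proteins of lipid handling and 15 genes of the vacuolar proton pump (V-ATPase). Each member passed the filter on low values and was tested.

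Lysosomes are acidic vesicles in which hydrolases break down proteins, lipids and sugars delivered by endocytosis, phagocytosis and autophagy. The V-ATPase keeps them acidic: its cytosolic V1 sector splits ATP, and the turning of its membrane-bound V0 sector carries protons inward. Many lysosomal genes carry a promoter element named CLEAR, which is bound by TFEB and its relatives TFE3 and MITF. Neutrophils and macrophages depend on this compartment to digest what they engulf, and some hydrolases are also stored in their granules.

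RNA was measured in HL60, an established human line of acute myeloid leukemia that matures towards neutrophils under all-trans retinoic acid (ATRA). Cells expressing Cas9 as a control and cells labelled HK3-null, in which the gene of hexokinase 3 had been targeted by CRISPR, were kept for 36 h in 1 µM ATRA or in 0.01% DMSO, with 3 RNAseq libraries in each of the 4 groups and 2 ATACseq libraries in each. The HK3-null libraries share 1 knockout label, and the study grew its edited cells from single clones, so whether replicates came from different clones is unknown and a difference between the labels may belong to that clone. The p values therefore measure the spread between these libraries, which may be technical.

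Values are taken as normalized counts, that is, reads per gene scaled by the authors to a common library size. The methods of the study speak of RPKM, which would also divide by gene length, and of normalized counts elsewhere. The deposited values are the log2 of whole numbers that sum to 29053838 to 31548189 per library and leave the steps of 1 scaling factor over all genes, so no division by length was assumed. Comparisons between genes per kilobase rest on that reading, whereas changes of 1 gene between groups do not. Estimated depth before scaling was 22700000 to 37000000 counts per library. HK3 itself had 90, 65 and 105 normalized counts in Cas9 control DMSO and 344, 302 and 346 in the DMSO libraries labelled HK3-null. In ATRA the HK3 counts were 1305, 1298 and 1850 in Cas9 control and 1384, 1285 and 1975 under the HK3-null label. The knockout label was thus not mirrored by a loss of HK3 RNA, and counts per gene do not show whether an intact enzyme could be made. The study checked its knockout clones by sequencing genomic DNA and by mass spectrometry. After vitamin D treatment, the latter detected HK3 in HL60 control cells but not in HL60 HK3 knockout cells. Cas9 control DMSO replicate 1 stood apart, with 16750 genes detected where each other library had 15031 to 15801. The 6 markers of the myeloid line, MPO, ELANE, PRTN3, AZU1, CD33 and SPI1, were above 10 normalized counts in every group, and 5 erythroid markers summed to at most 13. Whole chromosomes also differed between the labels: tested genes had a median log2 change in DMSO of 1.11 on chromosome 8 and 0.53 on chromosome 6, and of −0.75, −0.58 and −0.94 on chromosomes 5, 13 and 15. Of the members, 5 lie on chromosome 8, 1 on chromosome 5, 1 on chromosome 13, 2 on chromosome 15 and none on chromosome 6.

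Lysosomal transcripts made up a larger share of the libraries labelled HK3-null, and by far the largest share in those treated with ATRA. Together the 42 members took 0.355% to 0.372% of the normalized counts in Cas9 control DMSO, 0.508% to 0.533% in Cas9 control ATRA, 0.521% to 0.540% in HK3-null DMSO and 1.20% to 1.24% in HK3-null ATRA. The HK3-null ATRA libraries lay above all others. Much of that share was CTSD, the aspartic protease cathepsin D: without it, the other members held 0.333% to 0.347%, 0.419% to 0.426%, 0.471% to 0.487% and 0.703% to 0.707% in the same order of groups. The 15 pump genes took 0.117% to 0.123% in Cas9 control DMSO, 0.126% to 0.129% in Cas9 control ATRA, 0.151% to 0.152% in HK3-null DMSO and 0.190% to 0.194% in HK3-null ATRA. In these bulk samples a larger number of mature cells and more RNA per cell cannot be told apart.

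**Figure D1:**
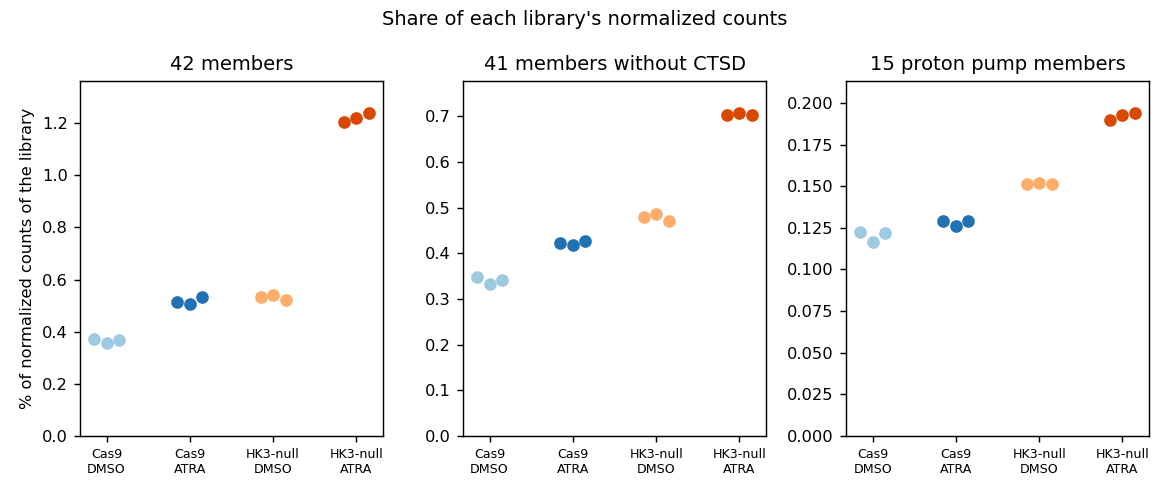
Share of each library's normalized counts, in percent, held by the 42 members, by the 41 members other than CTSD and by the 15 proton pump members. Each point is 1 library, with 3 in each group, and the HK3-null ATRA libraries, at 1.20% to 1.24% for the 42 members, sit above all others in each panel.

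Per kilobase of transcript, the scale on which levels can be compared between genes, the most abundant members in Cas9 control DMSO were ATP6V0B, a subunit of the membrane ring, at a mean of 10748 normalized counts per kb, PSAP, the precursor of the saposins, at 5457, and CTSC, which activates granule serine proteases, at 5140. In HK3-null ATRA the order was led by CTSD at 77928 normalized counts per kb, followed by PSAP at 14680 and CD63, a tetraspanin of lysosomes and azurophil granules, at 10982. The lowest members in Cas9 control DMSO were LGMN at 6.90, GAA at 8.44, CTSH at 8.86 and CTSK at 13.5 normalized counts per kb, all 4 near the limit of what can be tested.

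The comparison of the labels without ATRA asks how the compartment differed before maturation was induced. In DMSO, 23 of the 42 members were higher and 6 lower in the libraries labelled HK3-null, against 27.9% of all 13256 tested genes higher and 27.1% lower. At a change of at least 2-fold, 11 members were higher and 1 lower, where the background was 11.1% higher and 8.21% lower. The median log2 change was 0.57 over the members and 0.003 over all tested genes. Without Cas9 control DMSO replicate 1, 24 members were higher and 4 lower. On the chromosomes whose genes did not shift as a whole, that is, outside chromosomes 5, 6, 8, 13 and 15, 18 of 33 members were higher and 5 lower. Their median log2 change was 0.57, against 0.008 over the 11068 tested genes not assigned to those 5 chromosomes, of which 26.1% were higher and 24.5% lower. These 11068 include genes for which no chromosome was known.

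In ATRA the same comparison found 33 members higher and 2 lower under the HK3-null label, while 29.6% of all tested genes were higher and 29.5% lower. At least 2-fold changes were seen in 13 members upward and 2 downward, beside 11.4% and 9.93% of all tested genes. The median log2 change was 0.71 over the members and 0.009 over all tested genes. Outside the 5 shifted chromosomes, 26 of 33 members were higher and 2 lower, with a median of 0.66. Over the same 11068 tested genes the median was 0.02, and 28.3% were higher and 27.1% lower.

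**Figure D2:**
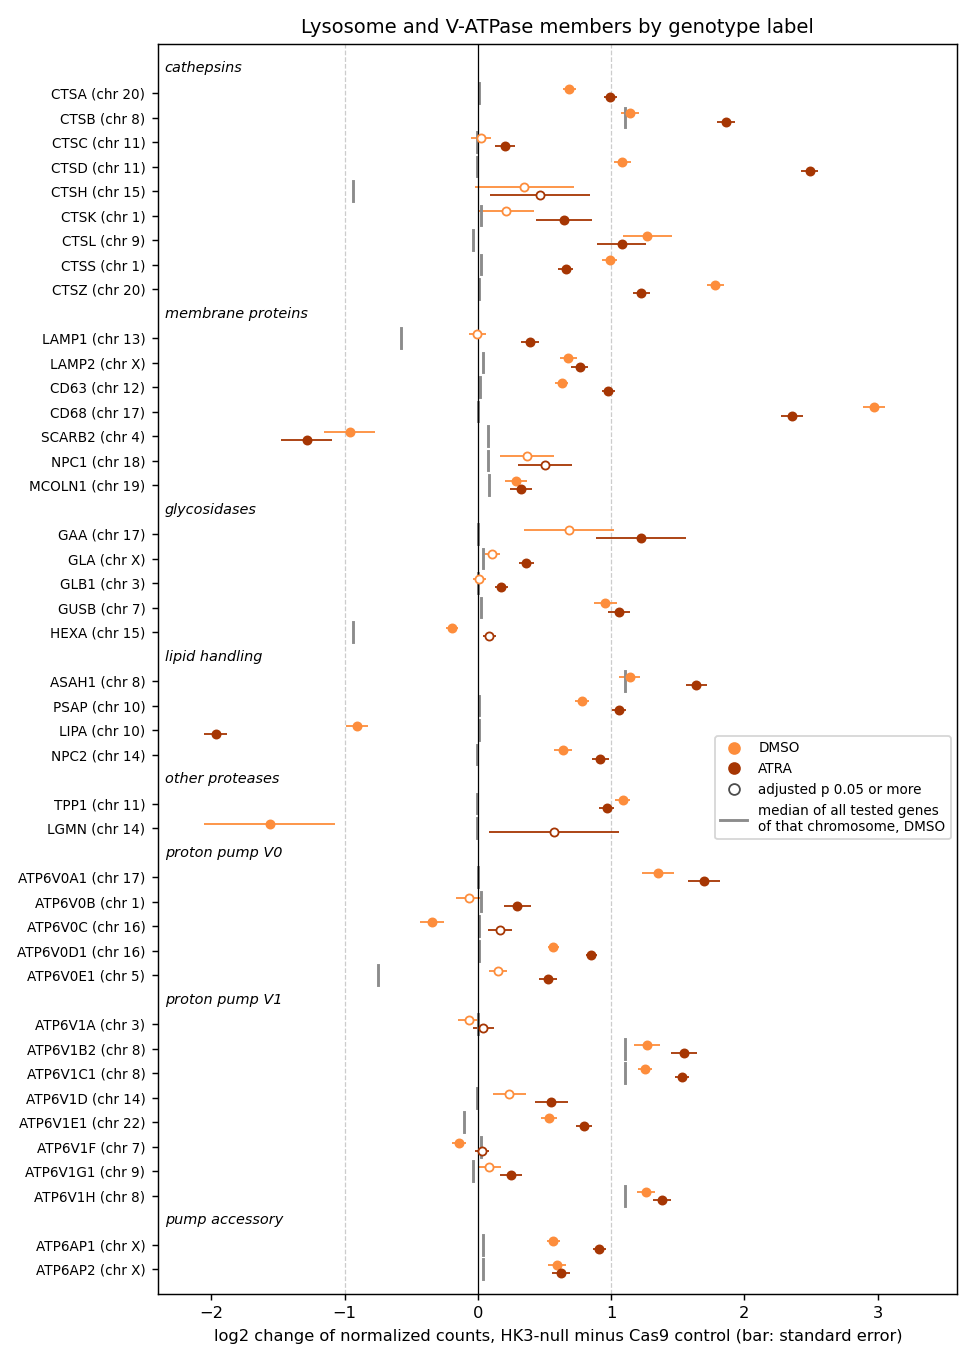
Log2 change of normalized counts, HK3-null minus Cas9 control, for each of the 42 members in DMSO and in ATRA, grouped by class. Points are differences of means of 3 libraries, bars are standard errors, open points did not pass at an adjusted p under 0.05, and grey ticks mark the median of all tested genes of the same chromosome in DMSO, which lies at 1.11 for the 5 members on chromosome 8.

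Markers of maturation and of another granulocyte moved in the same libraries. The 6 neutrophil markers summed to 2268 to 2527 normalized counts in Cas9 control DMSO, 5346 to 6174 in Cas9 control ATRA, 5302 to 5928 in HK3-null DMSO and 16059 to 17504 in HK3-null ATRA, lowest and highest in the same groups as the lysosomal share. Most of that sum was CSF3R, with means of 1805, 3361, 4043 and 12772 in the same order, and ITGAM was also highest in HK3-null ATRA, at 1739. CXCR2 had means of 462 and 757 in Cas9 control DMSO and ATRA against 357 and 634 under the HK3-null label, FPR1 had 5.67 and 9.0 against 215 and 220, and MMP9 had 4.0 and 1.67 against 53.0 and 21.3. The 6 eosinophil markers, carried mostly by PRG2, summed to 8837 to 9760, 1331 to 1485, 165292 to 173138 and 45803 to 54902, highest in HK3-null DMSO. Of the other eosinophil markers, EPX had means of 3.0, 1.33, 618 and 374, CLC 5.33, 16, 182 and 357, RNASE2 1587, 831, 1892 and 2087, and the receptor CCR3 1.67, 226, 5.67 and 582 in the same order, while the receptor IL5RA had at most 2.33. The 6 monocyte and macrophage markers summed to 34 to 55 in Cas9 control DMSO and to 242 to 433 in the other groups, led by CSF1R, with means of 40.0, 326, 111 and 162, and CD14, with 3.0, 2.33, 122 and 87.3, and with MRC1 or CD163 listed at 0 in 3 of the 4 groups. The 6 lymphoid markers summed to 258 to 285, 379 to 403, 469 to 500 and 1217 to 1333, in the order of the lysosomal share. NKG7, a granule protein of cytotoxic lymphocytes, made up most of that sum, with means of 215, 294, 423 and 1153, while MS4A1, the gene of CD20, was listed at 0 in all groups. Their part in the lysosomal changes was not tested.

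Cathepsins are proteases, most of which work at acid pH, and they carried the largest change of the list. CTSD, on chromosome 11, had 7713, 6975 and 7689 normalized counts in Cas9 control DMSO, 27729, 26913 and 30927 in Cas9 control ATRA, 16451, 16068 and 14862 in HK3-null DMSO, and 158278, 162525 and 159622 in HK3-null ATRA. No group overlapped another, and in each HK3-null ATRA library CTSD ranked 9 among all genes by count, against 636 to 747 in Cas9 control DMSO. Between labels, CTSD differed by 1.08 on the log2 scale in DMSO (standard error 0.06, limma adjusted p = 9.42e-08) and by 2.49 in ATRA (standard error 0.06, limma adjusted p = 2.4e-10). ATRA raised CTSD 3.82-fold in Cas9 control and 10.1-fold in the libraries labelled HK3-null. That difference between responses, 1.41 on the log2 scale, passed the test of interaction (standard error 0.09, adjusted p = 4.94e-06, limma).

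CTSZ, a carboxypeptidase on chromosome 20, had 603, 585 and 557 normalized counts in Cas9 control DMSO, 2829, 2766 and 3313 in Cas9 control ATRA, 2026, 2029 and 1947 in HK3-null DMSO and 6942, 6920 and 6943 in HK3-null ATRA. It was highest where both label and ATRA were present, but its rise under ATRA was smaller on the log2 scale in the HK3-null libraries. The change with the label was 1.78 on the log2 scale in DMSO (limma, standard error 0.07, adjusted p = 2.96e-09) and 1.23 in ATRA (limma, standard error 0.07, adjusted p = 4.5e-08), and the interaction was −0.55 (adjusted p = 0.00344, limma). CTSS, the cysteine protease that trims the invariant chain for antigen presentation, had a like pattern, with 1126, 1121 and 1124 normalized counts in Cas9 control DMSO, 1970, 1794 and 2005 in Cas9 control ATRA, 2247, 2312 and 2134 in HK3-null DMSO and 3168, 2984 and 2965 in HK3-null ATRA. Its log2 change between labels was 0.99 in DMSO (adjusted p = 6.86e-08, limma) and 0.66 in ATRA (adjusted p = 1.47e-06, limma).

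CTSB, an abundant lysosomal cysteine protease, lies on chromosome 8. Its normalized counts were 1394, 1216 and 1259 in Cas9 control DMSO, 1461, 1535 and 1518 in Cas9 control ATRA, 2903, 3014 and 2637 in HK3-null DMSO, and 5631, 5628 and 5198 in HK3-null ATRA. The log2 change between labels in DMSO, 1.14, lay close to the median of 1.11 on its chromosome and left 0.04 once the chromosome median was subtracted (adjusted p = 0.667, limma). In ATRA it was 1.87, of which 0.81 remained above the chromosome median (adjusted p under subtraction 1.92e-06, limma). The response of CTSB to ATRA was 0.22 in Cas9 control and 0.95 in the libraries labelled HK3-null (interaction 0.72, standard error 0.10, adjusted p = 0.000727, limma), and the median of chromosome 8 differed by −0.03 in that test.

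CTSA, which protects neuraminidase and β-galactosidase in a complex, rose from 3544, 3307 and 3448 normalized counts in Cas9 control DMSO to 5658, 5585 and 5332 in HK3-null DMSO, and from 4195, 4335 and 4209 in Cas9 control ATRA to 8603, 8775 and 8000 in HK3-null ATRA. Its groups did not overlap, and the log2 changes were 0.69 and 0.99 (adjusted p = 4.2e-07 and 2.25e-08, limma). CTSL, another cysteine protease, was low, with 48 to 69 normalized counts in Cas9 control DMSO, 46 to 64 in Cas9 control ATRA, 125 to 155 in HK3-null DMSO and 106 to 130 in HK3-null ATRA. It rose with the label, by 1.27 in DMSO and 1.08 in ATRA on the log2 scale (adjusted p = 0.000128 and 0.00038, limma), and gave log2 changes of −0.07 and −0.26 to ATRA that did not pass.

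The remaining 3 cathepsins, CTSC, CTSK and CTSH, gave changes with the label in DMSO that did not pass. CTSC had 7920 to 10595 normalized counts over all 12 libraries, with log2 changes between labels of 0.02 in DMSO and 0.21 in ATRA (adjusted p = 0.814 and 0.0335, limma), and its call in ATRA was lost in 4 of the 12 fits that left out 1 library. CTSK, known best from osteoclasts, had 20 to 24 normalized counts in Cas9 control DMSO and 42 to 53 in HK3-null ATRA, and rose with the label in ATRA by 0.65 (adjusted p = 0.0187, limma), a call lost in 3 such fits. The response of CTSK to ATRA was 0.95 under the HK3-null label (adjusted p = 0.00267, limma). CTSH, an aminopeptidase on chromosome 15, fell under ATRA in both labels, from 15 to 21 normalized counts to 5 to 15 in Cas9 control (log2 change −1.15, adjusted p = 0.028, limma) and from 22 to 27 to 11 to 12 in the HK3-null libraries (−1.04, adjusted p = 0.0381, limma). The change of CTSH with the label was 0.35 in DMSO and 0.47 in ATRA, and neither passed (adjusted p = 0.452 and 0.302, limma). With the median of chromosome 15 subtracted, these were 1.29 and 1.44 (adjusted p = 0.0137 and 0.00647, limma). The CTSH counts are small, and leaving out 1 library ended the call under ATRA in 4 of 12 fits in Cas9 control and in 6 of 12 under the HK3-null label.

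Of the other proteases, TPP1, the tripeptidyl peptidase whose loss causes a neuronal ceroid lipofuscinosis, had 3201, 3231 and 3537 normalized counts in Cas9 control DMSO, 5761, 5670 and 6461 in Cas9 control ATRA, 7121, 7007 and 7042 in HK3-null DMSO and 11684, 11350 and 11901 in HK3-null ATRA. The label and ATRA each raised it by a similar size: 1.09 and 0.97 on the log2 scale for the label in DMSO and ATRA, and 0.84 and 0.72 for ATRA in Cas9 control and HK3-null libraries (all 4 adjusted p at most 1.33e-06, limma). LGMN, an asparaginyl endopeptidase, was barely expressed, with 22, 14 and 5 normalized counts in Cas9 control DMSO, 13, 10 and 9 in Cas9 control ATRA, 5, 3 and 4 in HK3-null DMSO and 16, 16 and 15 in HK3-null ATRA. Its fall with the label in DMSO, −1.56 (adjusted p = 0.0186, limma), came from groups that share the value 5, and the call was lost without Cas9 control DMSO replicate 1 or 2 or HK3-null DMSO replicate 2, where the change was −1.42 to −1.10.

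**Figure D3:**
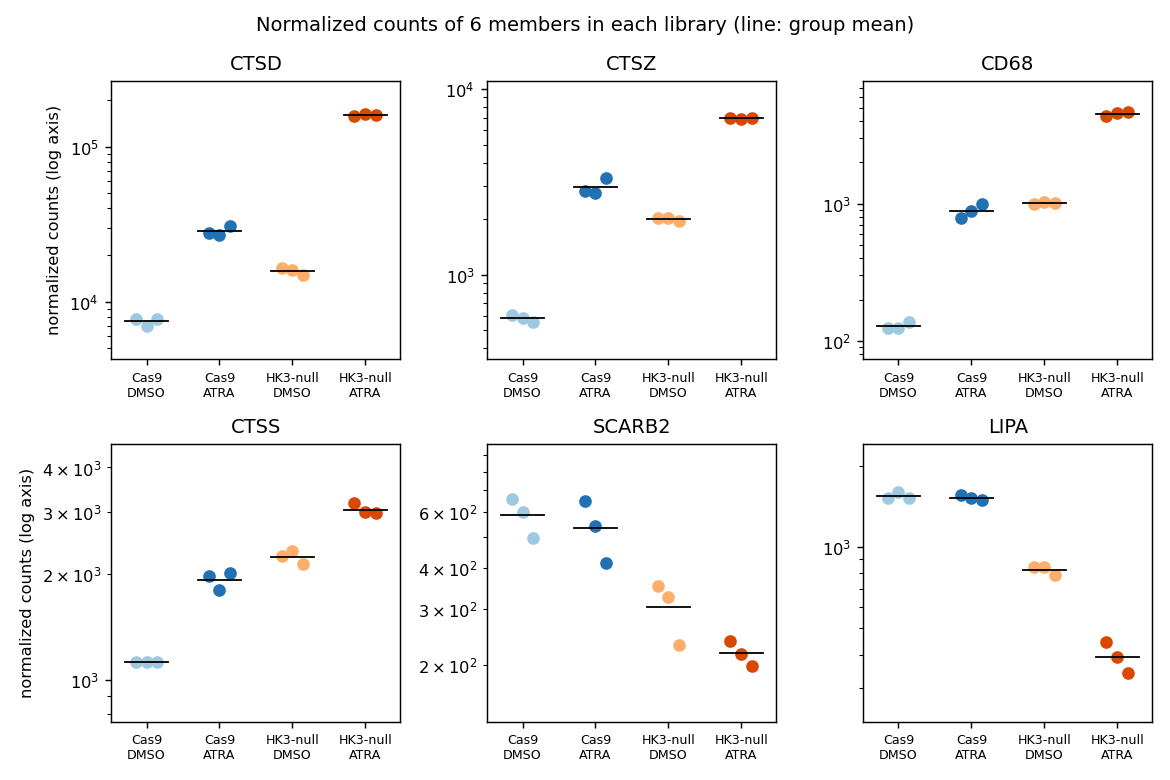
Normalized counts of CTSD, CTSZ, CD68, CTSS, SCARB2 and LIPA in each of the 12 RNAseq libraries on log axes, with 1 point per library and a line at each group mean. CTSD climbs from at most 7713 in Cas9 control DMSO to at least 158278 in HK3-null ATRA, while LIPA drops from at least 1515 to at most 444.

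Among the membrane proteins, CD68 rose most. CD68, a heavily glycosylated lysosomal protein used as a marker of phagocytes, had 125, 124 and 137 normalized counts in Cas9 control DMSO, 782, 887 and 995 in Cas9 control ATRA, 991, 1031 and 1006 in HK3-null DMSO and 4385, 4565 and 4661 in HK3-null ATRA. The DMSO libraries labelled HK3-null thus lay at or near the level of Cas9 control cells after ATRA. The change with the label was 7.85-fold in DMSO (log2 2.97, standard error 0.08, adjusted p = 3.97e-10, limma) and 5.13-fold in ATRA, and ATRA raised CD68 6.88-fold in Cas9 control and 4.49-fold in HK3-null libraries (interaction −0.61 on the log2 scale, adjusted p = 0.00773, limma).

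LAMP1 and LAMP2, the main glycoproteins of the lysosomal membrane, parted. LAMP2, on the X chromosome, rose with the label, from 4619 to 5158 normalized counts in Cas9 control DMSO to 7421 to 8204 in HK3-null DMSO (log2 0.68, adjusted p = 4.82e-06, limma), and from 5664 to 6267 to 9809 to 10971 in ATRA (log2 0.76, adjusted p = 1.56e-06, limma). LAMP1, on chromosome 13, had 8864 to 9837 and 8753 to 9492 normalized counts in the DMSO groups, a log2 change of −0.0025 (adjusted p = 0.979, limma). Set against the median of its chromosome, which was lower under the HK3-null label, the LAMP1 change in DMSO was 0.57 (adjusted p = 3.17e-05, limma). In ATRA LAMP1 had 6781 to 7951 normalized counts in Cas9 control and 9197 to 10008 under the HK3-null label. The change was 0.39 (adjusted p = 0.00038, limma), and 0.96 against the median of its chromosome (adjusted p = 4.33e-07, limma). CD63 rose with the label by 0.63 in DMSO and 0.98 in ATRA (adjusted p = 7.67e-07 and 2.25e-08, limma), from 3791 to 3997 normalized counts in Cas9 control DMSO up to 10656 to 11815 in HK3-null ATRA.

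SCARB2 (LIMP-2), the receptor that carries β-glucocerebrosidase to the lysosome, went the other way. Its normalized counts were 658, 599 and 497 in Cas9 control DMSO, 651, 542 and 416 in Cas9 control ATRA, 353, 325 and 231 in HK3-null DMSO and 238, 216 and 198 in HK3-null ATRA. Every library labelled HK3-null lay below every Cas9 control library, with log2 changes of −0.96 in DMSO and −1.28 in ATRA (adjusted p = 0.00126 and 0.000136, limma). In each group replicate 1 had the highest count and replicate 3 the lowest, and with the replicate number as a block the change of SCARB2 under ATRA in HK3-null libraries, −0.46, also passed (adjusted p = 0.0672 without the block and 0.000771 with it, limma).

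NPC1, the cholesterol exporter of the lysosomal membrane, had 807, 935 and 1190 normalized counts in Cas9 control DMSO, 1091, 1139 and 1553 in HK3-null DMSO, 1137, 1470 and 1713 in Cas9 control ATRA and 1660, 1992 and 2473 in HK3-null ATRA. The groups of each label overlapped, and the log2 changes of 0.37 in DMSO and 0.50 in ATRA did not pass (adjusted p = 0.148 and 0.0513, limma). The spread followed the replicate numbers, and with the replicate block both passed (adjusted p = 0.000138 and 1.11e-05, limma). MCOLN1, the calcium channel of the lysosome, had 459 to 474 normalized counts in Cas9 control DMSO and 503 to 640 in HK3-null DMSO, with log2 changes between labels of 0.29 and 0.32 in DMSO and ATRA (adjusted p = 0.0138 and 0.00649, limma). The MCOLN1 call in DMSO was lost without HK3-null DMSO replicate 1, where the change was 0.20, and with the median of chromosome 19 subtracted neither change passed (adjusted p = 0.0672 and 0.0668, limma).

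Of the glycosidases, GUSB, the β-glucuronidase of heparan and dermatan sulfate breakdown, rose with the label and with ATRA alike. Its normalized counts were 3425, 3383 and 3096 in Cas9 control DMSO, 7981, 7475 and 6403 in Cas9 control ATRA, 6561, 6633 and 6045 in HK3-null DMSO and 15751, 15800 and 13865 in HK3-null ATRA. The log2 change with the label was 0.96 in DMSO and 1.06 in ATRA (adjusted p = 2.44e-06 and 9.21e-07, limma), and that with ATRA was 1.14 in Cas9 control and 1.24 in HK3-null libraries, so the responses differed by only 0.10 (adjusted p = 0.697, limma). GAA, which degrades lysosomal glycogen, was low, with 51, 22 and 22 normalized counts in Cas9 control DMSO and 123, 102 and 134 in HK3-null ATRA. It rose with the label in ATRA by 1.22 (adjusted p = 0.00865, limma), where Cas9 control had 63, 41 and 51, while the change of 0.68 in DMSO did not pass (adjusted p = 0.109, limma).

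GLA and GLB1, the α- and β-galactosidases, changed little: over the 12 libraries GLA had 1661 to 2718 and GLB1 2206 to 2772 normalized counts. In ATRA both were higher under the HK3-null label, by 0.36 and 0.17 on the log2 scale (adjusted p = 0.000159 and 0.00969, limma), whereas the changes of 0.11 and 0.01 in DMSO did not pass. With the replicate block the DMSO change of GLA also passed (adjusted p = 0.02, limma). HEXA, the α-subunit of hexosaminidase A, lies on chromosome 15 and was the glycosidase to fall with the label in DMSO, from 3237 to 3411 normalized counts to 2782 to 3041 (log2 −0.19, adjusted p = 0.00473, limma). With the median of its chromosome subtracted the HEXA change turned to 0.74. In ATRA the HEXA change was 0.09 (adjusted p = 0.135, limma, and 0.0346 with the replicate block). With the chromosome median subtracted it was 1.07 in ATRA (adjusted p = 1.58e-08, limma).

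The lipid-handling members held the sharpest fall of the list. LIPA, the acid lipase that frees cholesterol from lipoproteins, lies on chromosome 10 and had 1515, 1597 and 1516 normalized counts in Cas9 control DMSO, 1554, 1526 and 1499 in Cas9 control ATRA, 842, 842 and 787 in HK3-null DMSO and 444, 393 and 341 in HK3-null ATRA. Cas9 control libraries did not move with ATRA beyond their spread (log2 −0.02, adjusted p = 0.912, limma), whereas the libraries labelled HK3-null fell by 1.08 on the log2 scale (adjusted p = 1.24e-06, limma). The interaction was −1.06 (standard error 0.12, adjusted p = 0.000292, limma), and the change with the label was −0.91 in DMSO and −1.97 in ATRA (adjusted p = 4.05e-06 and 9.49e-09, limma).

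The other members of this class rose. PSAP, whose saposins help hydrolases reach their lipids, had 14602 to 15220 normalized counts in Cas9 control DMSO, 19161 to 19468 in Cas9 control ATRA, 24645 to 26844 in HK3-null DMSO and 37659 to 42149 in HK3-null ATRA, with changes with the label of 0.78 and 1.06 on the log2 scale (adjusted p = 2.24e-07 and 2.07e-08, limma). NPC2, which hands cholesterol to NPC1, had 484, 534 and 473 normalized counts in Cas9 control DMSO, 1718, 1858 and 1773 in Cas9 control ATRA, 808, 794 and 721 in HK3-null DMSO and 3375, 3450 and 3296 in HK3-null ATRA. ATRA raised NPC2 3.59-fold in Cas9 control and 4.36-fold under the HK3-null label, and the label raised it by 0.64 and 0.92 on the log2 scale in DMSO and ATRA (adjusted p = 8.51e-06 and 3.96e-07, limma). ASAH1, the acid ceramidase on chromosome 8, had 781 to 890 normalized counts in Cas9 control DMSO, 1468 to 1668 in Cas9 control ATRA, 1723 to 1937 in HK3-null DMSO and 4482 to 5170 in HK3-null ATRA. Its change with the label was 1.14 in DMSO, of which 0.04 remained above the chromosome median (adjusted p = 0.737, limma), and 1.64 in ATRA, of which 0.58 remained.

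Of the 15 pump genes, 8 were higher and 2 lower with the HK3-null label in DMSO, and 12 were higher in ATRA, where all 15 log2 changes were above 0. Of all tested genes 27.9% were higher and 27.1% lower in DMSO and 29.6% higher in ATRA. The pump members that changed at least 2-fold were the same 4 in both: ATP6V1B2, ATP6V1C1 and ATP6V1H, all on chromosome 8, and ATP6V0A1 on chromosome 17. Outside the 5 shifted chromosomes, 5 of 11 pump genes were higher and 2 lower in DMSO, and 8 were higher in ATRA. Of the 11068 tested genes not assigned to those chromosomes, 26.1% were higher and 24.5% lower in DMSO, and 28.3% were higher in ATRA.

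ATP6V0A1, one of the alternative large subunits that form the proton path, had 380, 306 and 340 normalized counts in Cas9 control DMSO, 435, 411 and 503 in Cas9 control ATRA, 886, 788 and 940 in HK3-null DMSO and 1319, 1379 and 1692 in HK3-null ATRA. The labels did not overlap, and the log2 changes were 1.35 and 1.70 in DMSO and ATRA (adjusted p = 2.9e-06 and 3.96e-07, limma). ATP6V0D1, the subunit that links the ring to the central stalk, was the tightest of the pump genes, with 1391, 1357 and 1447 normalized counts in Cas9 control DMSO, 2309, 2318 and 2352 in Cas9 control ATRA, 2085, 2069 and 2060 in HK3-null DMSO and 4271, 4217 and 4119 in HK3-null ATRA. It rose with the label by 0.57 in DMSO and 0.85 in ATRA (adjusted p = 6.19e-07 and 2.38e-08, limma), and with ATRA by 0.73 in Cas9 control and 1.02 under the HK3-null label (adjusted p = 1.62e-07 and 7.62e-09, limma).

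The ring subunits behaved differently. ATP6V0C had 4586 to 5124 normalized counts in Cas9 control DMSO and 3536 to 4074 in HK3-null DMSO, a fall of 0.35 on the log2 scale (adjusted p = 0.00744, limma), and 4740 to 5879 and 5349 to 6407 in the ATRA groups, where the change of 0.16 did not pass (adjusted p = 0.143, limma, and 0.0222 with the replicate block). ATP6V0B, the other ring subunit, had 7738 to 11394 normalized counts over all libraries, with log2 changes of −0.07 in DMSO and 0.30 in ATRA (adjusted p = 0.6 and 0.0226, limma). Its groups in ATRA overlapped, and the call was lost in 4 of 12 fits that left out 1 library. ATP6V0E1, a small subunit on chromosome 5, had 2666 to 2990 normalized counts in Cas9 control DMSO and 3108 to 3220 in HK3-null DMSO, and rose with the label in ATRA by 0.53 (adjusted p = 3.56e-05, limma). Above the median of its chromosome the changes of ATP6V0E1 were 0.90 in DMSO and 1.30 in ATRA.

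Of the V1 sector, the 3 genes on chromosome 8 rose together. ATP6V1B2, a subunit of the head that splits ATP, had 1703 to 1799 normalized counts in Cas9 control DMSO, 2093 to 2482 in Cas9 control ATRA, 4086 to 4489 in HK3-null DMSO and 5859 to 7765 in HK3-null ATRA. ATP6V1C1, a stalk subunit, had 946 to 1008, 835 to 906, 2257 to 2371 and 2475 to 2628 in the same order, and ATP6V1H, which regulates the joining of the sectors, had 423 to 462, 428 to 487, 1028 to 1092 and 1140 to 1214. Their log2 changes with the label were 1.27, 1.25 and 1.26 in DMSO and 1.55, 1.53 and 1.38 in ATRA. With the chromosome median subtracted, 0.16, 0.15 and 0.16 remained in DMSO, of which only that of ATP6V1C1 passed (adjusted p = 0.19, 0.0407 and 0.0741, limma), and 0.49, 0.47 and 0.32 remained in ATRA, all 3 past the threshold (adjusted p at most 0.00188, limma).

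The V1 genes on other chromosomes gave changes with the label of −0.14 to 0.54 in DMSO and 0.03 to 0.80 in ATRA. ATP6V1E1 of the peripheral stalk rose with the label by 0.54 in DMSO and 0.80 in ATRA (adjusted p = 2.01e-05 and 7.02e-07, limma), from 1957 to 2156 normalized counts in Cas9 control DMSO to 2797 to 3111 in HK3-null DMSO. With chromosome medians subtracted its changes were 0.64 and 0.92, above those left to the 3 genes on chromosome 8. ATP6V1D of the central stalk, with 312 to 588 normalized counts over all libraries, rose by 0.55 in ATRA (adjusted p = 0.00252, limma), and its change of 0.24 in DMSO passed only with the replicate block (adjusted p = 0.127 without and 0.0462 with it, limma). ATP6V1A, the catalytic subunit of that head, gave log2 changes between labels of −0.07 and 0.04 that did not pass (adjusted p = 0.503 and 0.676, limma), and rose with ATRA from 1465 to 1582 normalized counts to 2178 to 2319 in Cas9 control and from 1377 to 1541 to 2094 to 2613 under the HK3-null label. ATP6V1F had 1469 to 1760 normalized counts in all libraries, and its fall of 0.14 with the label in DMSO (adjusted p = 0.0443, limma) was lost in 8 of 12 fits that left out 1 library. ATP6V1G1 had 1812 to 2527, with a rise of 0.25 with the label in ATRA (adjusted p = 0.0241, limma) that was lost in 3 of 12 such fits.

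The accessory proteins of the pump, both on the X chromosome, rose with the label. ATP6AP1, an assembly chaperone of V0, had 3226 to 3498 normalized counts in Cas9 control DMSO, 4376 to 4480 in Cas9 control ATRA, 4841 to 5186 in HK3-null DMSO and 8014 to 8729 in HK3-null ATRA, with log2 changes of 0.57 and 0.91 (adjusted p = 2.08e-06 and 4.29e-08, limma). ATP6AP2, the (pro)renin receptor, had 2691 to 2874, 2774 to 3257, 4119 to 4361 and 4309 to 4830 in the same order, with changes of 0.59 and 0.62 (adjusted p = 1.74e-05 and 1.01e-05, limma). Neither label showed a response of ATP6AP2 to ATRA that passed, with log2 changes of 0.07 and 0.10.

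The response to ATRA within each label asks how maturation changed the compartment. In Cas9 control, 21 members rose and 4 fell, against 20.3% and 21.3% of all tested genes, and 5 rose and 1 fell at least 2-fold, against 6.84% and 2.78%. The 5 were CD68, CTSZ, CTSD, NPC2 and GUSB. Without Cas9 control DMSO replicate 1, only 1 member fell. In the libraries labelled HK3-null, 28 members rose and 2 fell, where the background was 24.0% and 25.1%, and 9 rose and 2 fell at least 2-fold, where it was 8.06% and 6.05%. The 9 were the same 5 with ASAH1, GAA, ATP6V0D1 and LGMN, and the 2 that fell were LIPA and CTSH. The comparisons between labels and those with ATRA share libraries, so their values are not independent of each other.

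Outside the pump, 16 of 27 members rose with ATRA in Cas9 control and 20 of 27 under the HK3-null label, against 20.3% and 24.0% of all tested genes. Of the 15 pump genes, 5 rose and 2 fell in Cas9 control, with log2 changes between −0.33 and 0.73, and 8 rose under the HK3-null label, where all 15 changes were above 0. The 2 pump genes that fell were ATP6V0B (−0.33, adjusted p = 0.0189, limma), lost in 3 of 12 fits with 1 library left out, and ATP6V1C1 (−0.15, adjusted p = 0.049, limma), lost in 10 of 12. The others to fall in Cas9 control were CTSH and LAMP1, the latter by 0.32 on the log2 scale (adjusted p = 0.00238, limma). With the replicate block, CTSC and ATP6V1G1 also fell and GAA also rose in Cas9 control (adjusted p = 0.0069, 0.00736 and 0.0379, limma), and ATP6V1C1, ATP6V1D and ATP6V1H also rose under the HK3-null label (adjusted p = 0.0324, 0.0252 and 0.0404, limma).

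The test of interaction asks whether the response to ATRA differed between the labels. It passed above 0 for 13 members and below 0 for 4, against 4.48% and 4.64% of all tested genes. A value above 0 means a higher signed log2 change under the HK3-null label, which need not be a change of larger size. After CTSD, the highest values that passed were those of CTSB, at 0.72, ATP6V0C, at 0.51 (adjusted p = 0.0309, limma), and ASAH1, at 0.50 (adjusted p = 0.0168, limma). The ATP6V0C call was lost in 8 of the 12 fits that left out 1 library. The 4 below 0 were LIPA, CD68, CTSZ and CTSS. The count of 13 became 7 without Cas9 control DMSO replicate 1, without Cas9 control ATRA replicate 2, and without HK3-null ATRA replicate 1 or 2 or HK3-null DMSO replicate 3. CTSD, CTSB, LIPA, CTSZ, CD68, CTSA, CD63, ASAH1, ATP6V0D1 and ATP6AP1 passed in each of the 12 fits that left out 1 library. With the replicate block 19 members passed above 0 and 4 below 0, and CTSC, GLA, NPC2, LGMN, ATP6V0B and ATP6V1E1 were added (adjusted p = 0.0304, 0.0055, 0.0147, 0.0385, 0.00608 and 0.0223, limma).

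**Figure D4:**
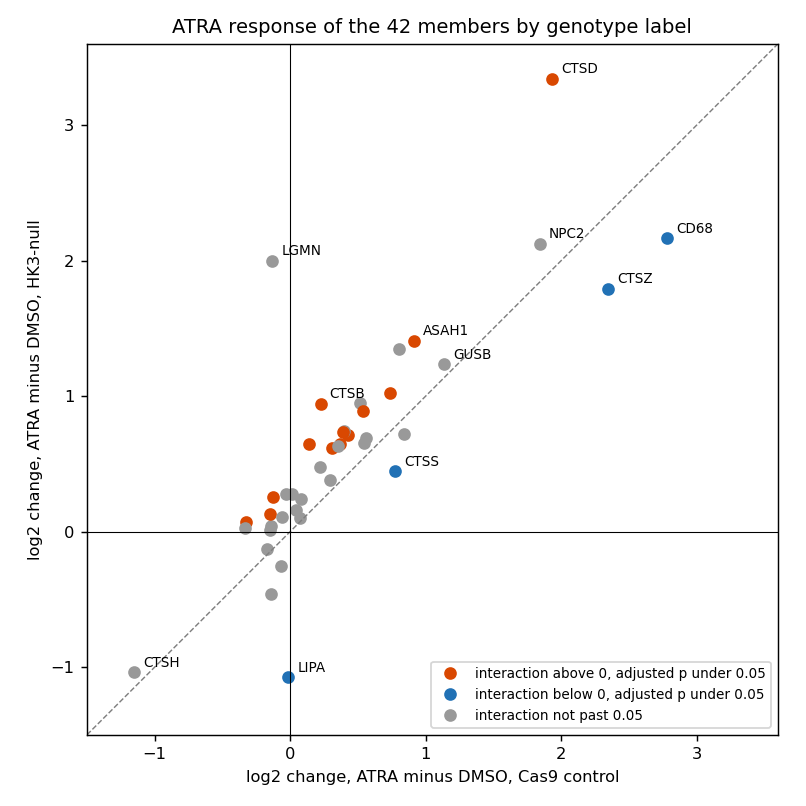
Log2 change under ATRA in Cas9 control (horizontal) against that in the libraries labelled HK3-null (vertical) for the 42 members, with the dashed line marking equal responses. Orange points, 13 members led by CTSD, passed the test of interaction above 0, and blue points, LIPA, CD68, CTSZ and CTSS, passed below 0.

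Promoter sequence was examined because CLEAR elements mark many lysosomal genes and the members moved largely in 1 direction. RefSeq promoters (GRCh38.p14) matched 29 of the 42 members, and the 250 bases before the start site were searched on both strands for the E-box CACGTG and for the CLEAR core TCACGTGA, which contains it; both read the same on either strand. The E-box was found in 9 of 29 member promoters (31.0%) and in 6.49% of the 27305 promoters of the table. The CLEAR core was found in 6 of 29 (20.7%) and in 0.890% of all. The 6 are given here, with CTSD and ATP6V0B, which hold the E-box alone. Each sequence covers bases 90 to 11 before the start site, 5′ to 3′ on the strand of the gene. Motifs that lie whole within these bases are in capitals.
CTSA (chr20:45891245-45891324, plus strand): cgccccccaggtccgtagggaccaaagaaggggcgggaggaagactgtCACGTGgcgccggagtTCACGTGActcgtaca
ATP6V0D1 (chr16:67481168-67481247, minus strand): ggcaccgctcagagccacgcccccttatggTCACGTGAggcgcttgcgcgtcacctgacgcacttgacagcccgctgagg
GAA (chr17:80101491-80101570, plus strand): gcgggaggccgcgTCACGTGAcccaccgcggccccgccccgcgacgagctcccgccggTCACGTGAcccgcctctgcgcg
LAMP1 (chr13:113297149-113297228, plus strand): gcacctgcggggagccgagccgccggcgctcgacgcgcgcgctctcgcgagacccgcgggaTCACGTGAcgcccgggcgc
MCOLN1 (chr19:7522534-7522613, plus strand): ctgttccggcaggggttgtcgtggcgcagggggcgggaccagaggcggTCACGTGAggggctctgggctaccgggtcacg
ATP6V1G1 (chr9:114587679-114587758, plus strand): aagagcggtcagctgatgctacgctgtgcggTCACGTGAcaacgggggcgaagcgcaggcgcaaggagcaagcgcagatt
CTSD (chr11:1763938-1764017, minus strand): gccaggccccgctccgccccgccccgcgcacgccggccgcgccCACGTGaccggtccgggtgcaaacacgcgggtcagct
ATP6V0B (chr1:43974870-43974949, plus strand): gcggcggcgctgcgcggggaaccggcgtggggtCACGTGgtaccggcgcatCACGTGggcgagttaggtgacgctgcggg

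All 6 genes that hold the core were higher with the label in ATRA, as were 29.6% of all tested genes, but by different sizes. CTSA, whose nearest E-box begins 25 bases before its start, ATP6V0D1 and GAA rose with the label in ATRA by 0.99, 0.85 and 1.22 on the log2 scale, whereas LAMP1, MCOLN1 and ATP6V1G1 gave 0.39, 0.32 and 0.25. With chromosome medians subtracted the changes were 0.95, 0.84, 1.21, 0.96, 0.20 and 0.26 in the same order, and that of MCOLN1 no longer passed. CTSD, with the largest change of the members between labels in ATRA, holds an E-box without the full core, and ATP6V0B, with 2 E-boxes, gave 0.30. CD63 holds an E-box 180 bases before its start, outside the windows shown. LAMP1 holds 5 E-boxes in its 250 bases, of which 1 lies in the window. MCOLN1 holds 2 CLEAR cores, of which 1 is shown whole, and its nearest E-box begins 14 bases before the start, across the edge of the window. The motif matches are letters in these windows and say nothing of binding in these cells.

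Genes of the factors that bind the element were measured as well. In the list of TFEB relatives and lysosomal mTORC1 control, 8 of 17 genes were higher and 5 lower with the HK3-null label in DMSO, and 8 higher and 1 lower in ATRA. Of all tested genes 27.9% and 27.1% were higher and lower in DMSO and 29.6% and 29.5% in ATRA, so the 5 of 17 lower lay near the background. TFEB, on chromosome 6, had means of 13.7 ± 9.29 (SD, n = 3) normalized counts in Cas9 control DMSO, 157 ± 56.9 in Cas9 control ATRA, 41.7 ± 15.6 in HK3-null DMSO and 636 ± 255 in HK3-null ATRA. Its log2 changes with the label were 1.77 and 2.0 in DMSO and ATRA (adjusted p = 0.013 and 0.00608, limma), and the median of its chromosome was 0.53 and 0.58. RRAGD, a GTPase that ties mTORC1 to the lysosome and that also lies on chromosome 6, rose by 0.97 in DMSO, and RRAGB, on the X chromosome, by 0.71. The 5 lower in DMSO were SLC38A9, on chromosome 5, LAMTOR4, RRAGA, LAMTOR5 and LAMTOR2, with log2 changes of −0.50, −0.47, −0.37, −0.20 and −0.17. TFE3 gave 0.14 in DMSO, which did not pass, and 0.78 in ATRA (adjusted p = 0.399 and 0.000378, limma), and MITF gave 0.32 and 0.04, neither of which passed (adjusted p = 0.263 and 0.905, limma). These 7 genes were named after their values were seen.

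Other lysosomal genes outside the 42 were counted from 5 lists. Of 82 tested, 45 were higher and 14 lower with the HK3-null label in DMSO and 47 higher and 11 lower in ATRA, against the same 27.9% and 27.1% of all tested genes in DMSO and 29.6% and 29.5% in ATRA. Among 28 other hydrolases, 18 rose and 4 fell in DMSO and 19 rose and 4 fell in ATRA. Some of them were nearly absent from Cas9 control: GALC, the galactocerebrosidase, had means of 1.33 and 0.333 normalized counts in Cas9 control DMSO and ATRA and of 421 ± 19.6 and 718 ± 53.4 (SD, n = 3) under the HK3-null label. SGSH, the heparan N-sulfatase, had means of 2.0 and 2.67 in Cas9 control and of 49.3 ± 15.3 and 625 ± 23.1 under the HK3-null label. NEU1, a sialidase on chromosome 6, rose by 1.63 on the log2 scale in DMSO.

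Among 16 other membrane and transport proteins, 13 rose and 1 fell with the label in DMSO, and the same numbers in ATRA. LAPTM4B, on chromosome 8, had means of 15.3 ± 24.0 and 5.33 ± 4.04 normalized counts in Cas9 control DMSO and ATRA and of 7879 ± 335 and 4612 ± 639 under the HK3-null label. SLC11A1 (NRAMP1), the metal transporter of phagocyte lysosomes, had 2.67 ± 1.15 and 4.0 ± 1.73 in Cas9 control and 158 ± 12.6 and 112 ± 3.61 under the HK3-null label. TPCN1, an endolysosomal cation channel, rose by 1.93 on the log2 scale in DMSO.

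The other pump subunits and assembly factors were mixed, with 3 of 12 higher and 4 lower in DMSO and the same numbers in ATRA, shares near those of all tested genes (27.9% and 27.1% in DMSO, 29.6% and 29.5% in ATRA). ATP6V1C2, an alternative form of the C subunit, had 12.3 ± 3.21 normalized counts in Cas9 control DMSO and 146 ± 7.0 in HK3-null DMSO, TCIRG1, an alternative large V0 subunit, rose by 0.54, and DMXL1, an assembly factor on chromosome 5, fell by 0.73 on the log2 scale. Of 9 genes of mannose 6-phosphate sorting, which sends hydrolases to the lysosome, 3 passed in DMSO, all upward, a share near the 27.9% of all tested genes, and 4 rose and 1 fell in ATRA, against 29.6% and 29.5%. The receptor IGF2R, on chromosome 6, rose by 1.28 in DMSO, GNPTG by 0.53 and the receptor M6PR by 0.37.

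Open chromatin was measured by ATACseq, whose signal is the density of fragments in a region after all libraries had been reduced to the same number. The 8286 regions given are those that differ between the labels in ATRA, so the label was tested in DMSO only and the ATRA values are a description. The selection still bears on that test, since a difference between the labels may be present in both treatments. The ATRA libraries also entered the filter on signal and the estimate of spread. The p values in DMSO are therefore not independent of how the regions were chosen. Of these regions, 19 list a member, at 13 genes, and 16 were above the filter on signal. In DMSO 10 of the 16 were called higher and 2 lower under the HK3-null label, against 42.7% and 43.9% of the 6214 regions tested. All 8 regions on chromosome 8, 5 of them at CTSB, were among the 10. The share of all tested regions of chromosome 8 that were called was not determined. On other chromosomes 2 of 8 were higher and 2 lower, shares below the background.

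The region nearest to CTSD was high in 1 group. It spans chr11:1749096-1751428 (hg38), 1327 bases past the end of the gene, and lists 1 further gene. Its signal was 5.52 and 3.38 in Cas9 control DMSO, 15.1 and 8.67 in Cas9 control ATRA, 4.20 and 5.07 in HK3-null DMSO, and 117 and 93.6 in HK3-null ATRA. Both HK3-null ATRA libraries lay far above the other 6, a difference in ATRA on which the regions had been selected. The region passed the filter on mean signal, 17.1, only through these libraries, as the other 6 had at most 15.1. The labels in DMSO differed by 0.07 on the log2 scale (standard error 0.44, adjusted p = 0.876, limma).

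At LIPA the region chr10:89251648-89252248 covers the start site. Its signal was 295 and 333 in Cas9 control DMSO, 242 and 168 in Cas9 control ATRA, 113 and 92.9 in HK3-null DMSO and 48.8 and 48.4 in HK3-null ATRA. The RNA means had the same order, but LIPA RNA in Cas9 control did not move with ATRA beyond its spread (log2 −0.02, adjusted p = 0.912, limma). The change of the region with the label in DMSO was −1.60 on the log2 scale (standard error 0.28, adjusted p = 5.62e-06, limma). Inside CTSB, the intronic region chr8:11853903-11854317 had signals of 5.92 and 2.23 in Cas9 control DMSO and 65.8 and 59.5 in HK3-null DMSO, a log2 change of 3.75 (adjusted p = 1.36e-09, limma), while the region at the CTSB start site, chr8:11867314-11868287, changed by 1.20 (adjusted p = 0.000949, limma). At the start sites of ATP6V1B2 and ATP6V1C1 the changes were 1.06 and 0.92 (adjusted p = 0.00113 and 0.00409, limma). Like CTSB, both genes lie on chromosome 8, where the median RNA change in DMSO was 1.11 on the log2 scale. No chromosome median was subtracted from the ATACseq values, so the part of a shift of the whole chromosome in these changes was not tested.

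**Figure D5:**
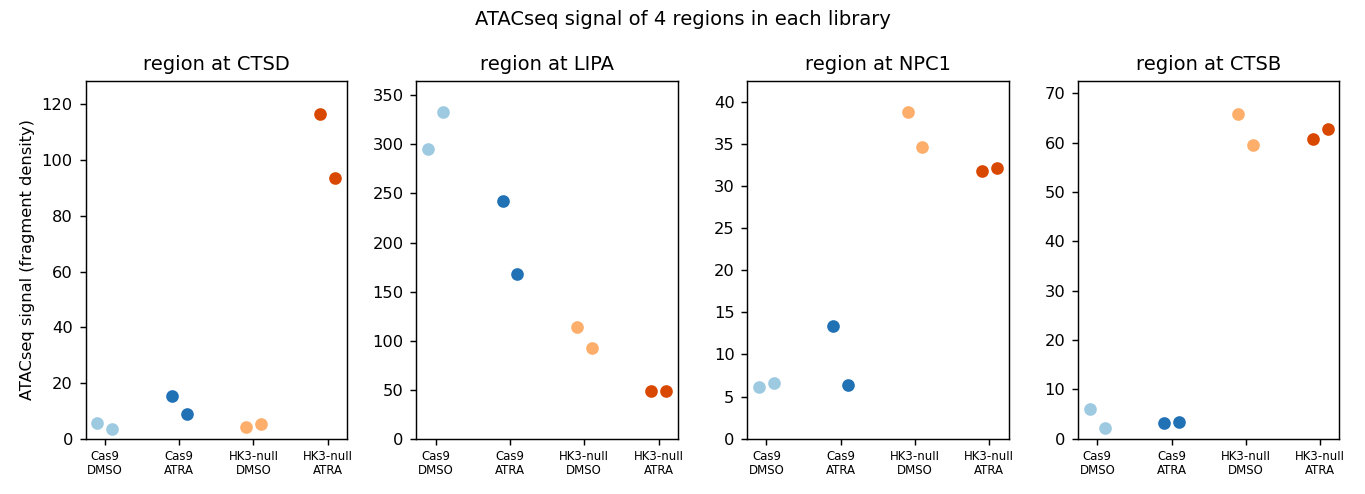
ATACseq signal (fragment density, axes from 0) of the regions nearest to CTSD, at the LIPA start site, in NPC1 and in an intron of CTSB, with 1 point for each of the 8 libraries. The CTSD region is at 93.6 and 117 in HK3-null ATRA and at most at 15.1 elsewhere, and the LIPA region falls from 295 and 333 in Cas9 control DMSO to 48.4 and 48.8 in HK3-null ATRA. All regions of the data had been selected on how the labels differed in ATRA.

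Other regions went with or against the RNA. A region in NPC1, chr18:23540858-23541275, had signals of 6.09 and 6.62 in Cas9 control DMSO and 38.8 and 34.6 in HK3-null DMSO (log2 2.36, adjusted p = 4.85e-06, limma), and one 5965 bases before CTSA rose from 68.5 and 80.8 to 176 and 150 (log2 1.12, adjusted p = 0.0014, limma). The region in NPC1 lists 2 genes and that before CTSA lists 5, the member included. A region overlapping the last part of LAMP1, chr13:113321777-113322480, which lists a further gene, fell from 434 and 509 to 110 and 96.1 (log2 −2.18, adjusted p = 3.75e-08, limma), where LAMP1 RNA in DMSO changed by −0.0025. Past the end of MCOLN1, chr19:7534011-7534221 had 19.3 and 39.1 in Cas9 control DMSO and 0 and 1.00 in HK3-null DMSO, and the regions in CTSH had 21.9 to 30.5 and 9.21 to 11.7. These were below the filter on mean signal. The regions at CTSC, CTSK and ATP6V0E1 were not called, with log2 changes of 0.65, −0.50 and 0.01 (adjusted p = 0.0540, 0.221 and 0.976, limma).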

How the data were processed

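RNAseq was done on 12 and ATACseq on 8 libraries of HL60 cells. The RNA values were made by the authors from directional paired-end reads mapped to GRCh38, and were deposited as the log2 of a scaled, rounded count per gene, with 0 written as the log2 of 0.001; the aligner and counter were not given in the sources used here, and the submitters' processing notes name DESeq2 and MACS2. Counts before scaling were not used, so depth (22700000 to 37000000 per library) was estimated from the steps that scaling leaves, and it limits the members with few counts. For ATACseq the authors aligned reads, called peaks, merged them and deposited the signal, a fragment density per region, for 8286 regions, which were selected on how the labels differed in ATRA; depth is unknown for them. Entries without a gene name (330, at most 0.00926% of counts) were left out.

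The log2 values were fitted with limma 3.58.1 in R 4.3.3 as 4 group means over all 12 libraries (eBayes with a trend, two-sided tests, Benjamini-Hochberg adjustment over the 13256 genes that had a mean log2 above 3 in some group). A member passed at an adjusted p under 0.05. The ATACseq signal was fitted as log2(signal + 1) over the 6214 regions whose mean exceeded 17.1 (25th percentile), with calls at adjusted p under 0.05 and 1.5-fold or more. On simulated data the RNA fit found 77% of 1.5-fold and 96% of 2-fold changes in HK3-null against Cas9 control DMSO (100 genes each, 12677 tested). The simulation used a fixed setting of spread and no effect of replicate number, and changed only genes above a minimum mean count. These shares may therefore not hold for the real libraries or for members with few counts. Alternatives were the replicate block, log2(normalized count + 1), filters, quantile normalization, the 6 libraries of a contrast, eBayes without a trend, other thresholds, subtraction of chromosome medians and leaving out each library.

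Replicate numbers come from the sample titles. Deviations from the group means correlated at 0.178 to 0.631 in the 18 pairs with the same number and at −0.643 to 0.286 in the 36 other pairs, over the 10667 genes averaging 50 or more normalized counts, so the numbers were taken to pair the libraries. The main fit nevertheless held no term for this pairing. Counts and p values come from that unpaired fit unless the replicate block is named. The members and lists were chosen with earlier results of these data known. Every member was named; up to 3 genes of each other list were named by the largest change in DMSO among those that passed. Lengths per kb are those of MANE transcripts (GENCODE 44), and gene chromosomes come from RefSeq.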

Additional observations from a re-analysis of the deposited data

Results flagged for a closer look

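The following members were singled out because their response to ATRA differed between the labels in the test of interaction, given as the log2 response in HK3-null minus that in Cas9 control libraries. Values above 0 were found for CTSD (1.41), CTSB (0.72), ATP6V0C (0.51), ASAH1 (0.50), LAMP1 (0.39), ATP6V0E1 (0.38) and CD63 (0.35). They were also found for ATP6AP1 (0.35), CTSA (0.31), ATP6V0D1 (0.29), HEXA (0.28), PSAP (0.28) and ATP6V1C1 (0.28). Values below 0 were found for LIPA (−1.06), CD68 (−0.61), CTSZ (−0.55) and CTSS (−0.33). The sign does not give the size of a response. LAMP1 changed with ATRA by −0.32 in Cas9 control and 0.07 under the HK3-null label, and ATP6V1C1 by −0.15 and 0.13. LIPA fell with ATRA under the HK3-null label alone, whereas CD68, CTSZ and CTSS rose under both labels and started higher in HK3-null DMSO.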

How the results depend on the processing

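Of the single-member results past the threshold, 2566 values under the alternatives kept their direction and their side of it, 212 kept the direction alone and 2 turned: HEXA in DMSO became 0.74 with chromosome medians subtracted, and the interaction of PSAP became −0.016 with quantile normalization. With the replicate block, 26 members were higher and 6 lower with the HK3-null label in DMSO and 36 and 2 in ATRA; beyond the calls given in the report, the block changed none.

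The number of members lower in DMSO was 3 at an unadjusted p under 0.05 and a fold of at least 1.5. The median change with the label in ATRA was 0.78 among genes with a group mean log2 above 5 and 0.65 with quantile normalization. Members falling with ATRA in Cas9 control numbered 2 without the filter, with the stricter filter or in the 6 libraries of the contrast, and 1 at the unadjusted threshold, where 10 rose. Members falling with ATRA under the HK3-null label numbered 1 without the filter or with the stricter filter. With quantile normalization the median was 0.55 for ATRA under the HK3-null label and 0.20 for the interaction, and the unadjusted threshold gave interactions of 3 members above 0 and 2 below. Without the filter 5 ATACseq regions were lower.

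With 1 library left out, members higher with the label numbered 22 to 24 in DMSO and 30 to 34 in ATRA. Members falling with ATRA numbered 1 to 4 in Cas9 control and 1 to 3 under the HK3-null label, and interactions above 0 numbered 7 to 14. The median change was 0.68 to 0.78 for the label in ATRA, 0.23 to 0.32 for ATRA in Cas9 control and 0.53 to 0.62 for ATRA under the HK3-null label. ATACseq regions lower numbered 2 to 5, the 5 without HK3-null ATRA replicate 1. The cause of these shifts was not tested, apart from fewer libraries or genes. Depth limits CTSH, CTSK, CTSL, GAA and LGMN, which had few counts.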
